A study of Mus musculus with 15 samples.

Results

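The constant regions of antibodies are encoded by a small set of immunoglobulin genes, and 10 genes of this set were followed here: the heavy chain genes Ighm, Igha, Ighg1, Ighg2b, Ighg2c and Ighg3, the light chain genes Igkc, Iglc1 and Iglc2, and Jchain, which encodes the joining chain. They were chosen by gene name, and all 10 were found among the 32479 genes with a count in any library, out of 55401 genes in the count matrix. The libraries came from submandibular glands, salivary glands under the lower jaw, of 15 mice in 3 groups of 5. The control group was ICR mice and the model group NOD/LTJ mice, both labelled wild type and untreated, and the third group was NOD/LTJ mice labelled wild type and given SJQYD. The series title names Sjögren's syndrome, an autoimmune disease of the salivary and tear glands, and NOD mice develop immune infiltrates in these glands. Age, sex, dose and duration of treatment are not in the labels. Since every model mouse was NOD/LTJ and every control mouse ICR, strain and disease cannot be told apart.

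An antibody is built of 2 kinds of chain. The constant part of its heavy chain sets the class, mu (Ighm) for IgM, alpha (Igha) for IgA and gamma for the IgG subclasses, and its light chain is kappa (Igkc) or lambda (Iglc1, Iglc2). B cells begin with IgM and can switch to another class, and plasma cells secrete the product in large amounts. In salivary glands the typical product is IgA joined by the J chain into dimers, which the receptor encoded by Pigr carries across the epithelium into saliva.

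The heavy chain genes lie side by side on the minus strand of chromosome 12 (GRCm38), from Igha at chr12:113254830-113260236 over Ighg2c, Ighg2b, Ighg1 and Ighg3 to Ighm at chr12:113418558-113422730. Igkc lies on the plus strand at chr6:70726435-70726966, Iglc1 at chr16:19061618-19062071 and Iglc2 at chr16:19198396-19200351, both on the minus strand, and Jchain on the minus strand at chr5:88519809-88527891. Because these genes arose by duplication, a read of one can resemble another, and this bears on Iglc1, the member that stood out. The following stretches of 90 coding bases are aligned at the same place in Iglc1, Iglc2 and Iglc3 and are read 5′ to 3′ on the coding strand from GENCODE M21 transcripts. Capitals mark the 33 positions at which at least one of these 3 genes has another base.
Iglc1: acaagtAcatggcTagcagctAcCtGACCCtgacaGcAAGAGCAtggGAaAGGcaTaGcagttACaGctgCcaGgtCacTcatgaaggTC
Iglc2: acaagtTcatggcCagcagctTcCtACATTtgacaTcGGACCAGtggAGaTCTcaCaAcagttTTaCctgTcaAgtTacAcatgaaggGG
Iglc3: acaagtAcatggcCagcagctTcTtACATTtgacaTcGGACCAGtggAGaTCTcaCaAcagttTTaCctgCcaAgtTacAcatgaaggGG
The positions of these stretches are chr16:19061793-19061882, chr16:19198577-19198666 and chr16:19065406-19065495. Over the whole coding part Iglc1 shared 73.2% of its aligned bases with Iglc2, and the longest run shared by both was 19 bases. Iglc2 and Iglc3 were 96.5% identical with a shared run of 79 bases, shorter than the read length of 150 bases. How well reads of these 2 were told apart was not tested. The gene most like Iglc1 was Iglc4, with 86.5% identity and a shared run of 31 bases, and it reached a normalised read count of at most 0.131 CPM (a unit scaled to library size) in any library.

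Among the IgG genes the closest pair was Ighg2b and Ighg2c, with 85.9% identity and a longest shared run of 78 bases, and the others shared 75.3 to 77.5%. A stretch of both is given with the 36 positions at which they differ in capitals, at chr12:113287419-113287508 and chr12:113306419-113306508.
Ighg2c: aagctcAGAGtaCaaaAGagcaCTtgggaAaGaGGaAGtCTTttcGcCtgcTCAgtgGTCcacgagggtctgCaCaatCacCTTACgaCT
Ighg2b: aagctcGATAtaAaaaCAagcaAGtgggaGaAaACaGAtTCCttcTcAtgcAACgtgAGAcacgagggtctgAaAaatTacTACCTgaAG
No window of 150 bases, the read length, was shared exactly between any member and another member, Ighd, Ighe, Iglc3 or Iglc4. Other genes of the reference were not searched. The reference is that of C57BL/6J, and neither the ICR nor the NOD/LTJ alleles were available here. In mice Ighg2c and Ighg2a are alternative alleles carried by different strains. How far differences between strain alleles and the reference moved the counts was not tested.

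Libraries held between 39510018 and 68694263 counts. The normalised read count is given as CPM, counts scaled to the library total after TMM adjustment, and 3 counts, used as the detection floor, equalled 0.0290 to 0.0840 CPM. Of 10 fixed genes of the gland epithelium, led by the salivary product Mucl2, the summed share of all counts was 18.8 to 61.0%. Products of the adjoining parotid gland made up 4.17% of the counts in control 2, 16.0% in model 3 and 6.50% in SJQYD 1, and at most 2.11% elsewhere. Xist, which is expressed from the inactive X chromosome of females, was at 1.01 CPM in SJQYD 3 and at 162 to 270.2 CPM in the others.

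All 10 members passed the filter on low counts and entered the test with 18136 genes in all. Together they took 0.00209 to 0.106% of all counts in the 5 control libraries, 0.0719 to 0.275% in the model libraries and 0.0893 to 0.450% in the SJQYD libraries. In model against control 9 of 10 members had a log2 fold change above 0 and their median was 2.07, beside 0.03 over all tested genes. With edgeR's quasi-likelihood test 1 member, Iglc1, rose at an adjusted p under 0.05 (Benjamini-Hochberg over all tested genes), where 2.57% of all tested genes were called higher. At an unadjusted p under 0.05 there were 6 members, all higher, beside 11.6% of all tested genes. DESeq2, run as an alternative, called 5 members higher, namely Ighm, Igha, Igkc, Iglc1 and Iglc2, and 5.17% of all its genes. In 3 members (Ighm, Iglc1 and Iglc2) every model library was above every control library, as was the case for 3.05% of all tested genes.

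In SJQYD against control the member median was 1.50 beside 0.04 over all genes. Again 1 member, Iglc1, rose, where 5.22% of all tested genes were called higher, and DESeq2 called 4 (Igha, Igkc, Iglc1 and Iglc2) and 7.75% of all its genes. The scaling matters for these directions: of all calls, 50.7% were higher in model and 47.0% in SJQYD against control, but 97.3 and 97.9% with library totals in place of TMM. That scaling moved the median over all tested genes, 0.03 and 0.04 with TMM, to 0.52 and 0.63 on the log2 scale. Iglc1 and Iglc2 were above every control library, as were 5.07% of tested genes. Against the model group no member passed with edgeR, with DESeq2, or at an unadjusted p under 0.05, while 2.75% of all tested genes were called in either direction. The member median was -0.06 beside -0.03 over all genes, and no member had groups that did not overlap, against 5.50% of all genes. Each group enters 2 of these 3 comparisons, so they are not independent. In bulk tissue, fewer cells of a type and less RNA per cell cannot be told apart.

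**Figure D1:**
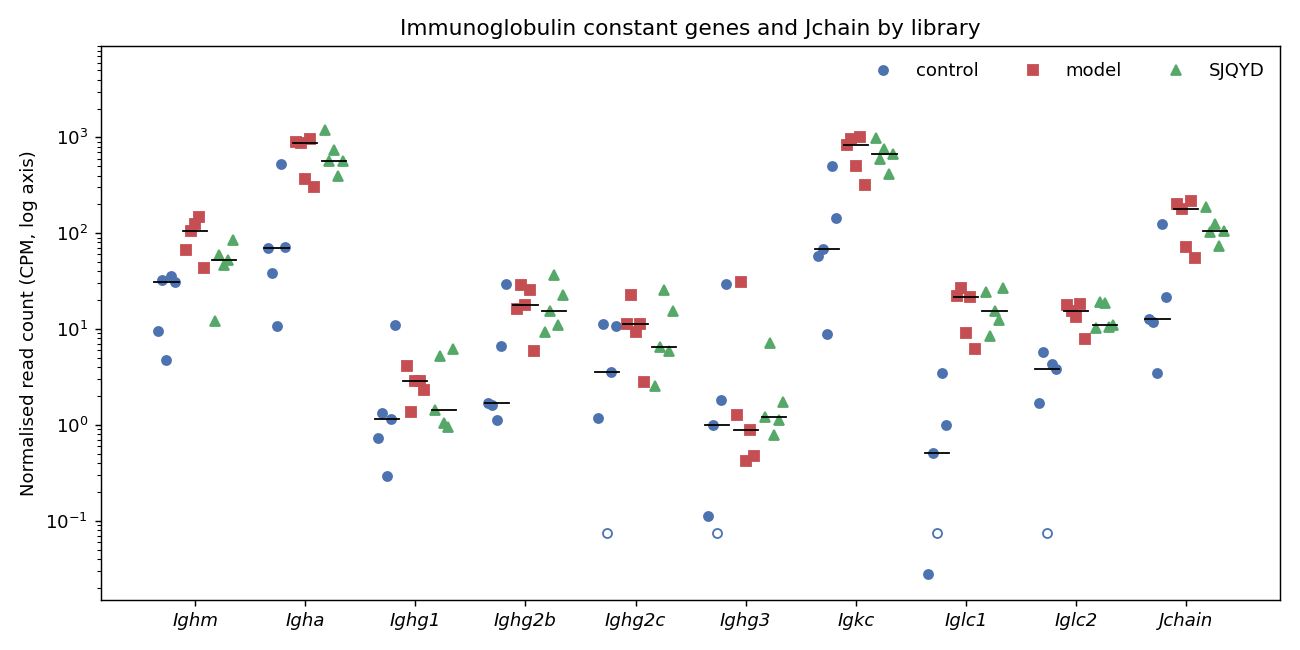
Normalised read count (CPM, log axis) of the 10 members in each of 15 libraries, with control as circles, model as squares and SJQYD as triangles. Lines are group medians, and open symbols are counts of 0 drawn at the floor of 3 counts. Igha, Igkc and Jchain are low in 4 control libraries and high in control 4, and Iglc1 is at 3.47 CPM or less in all 5 control libraries.

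Igha, the heavy chain of IgA, had the highest CPM of the single heavy chain genes in every library. It stood at 69.3, 38.6, 10.8, 523 and 72.2 CPM in control libraries 1 to 5. The model libraries 1 to 5 held 902, 866, 367, 972 and 305 CPM, and the SJQYD libraries 1183, 565, 741, 400.0 and 571 CPM. Every control library but control 4 lay below every NOD/LTJ library, and control 4 lay within their range, so the groups overlapped. The log2 fold change of Igha was 2.26 ± 0.83 (SE) in model against control (edgeR adjusted p = 0.134) and 2.28 ± 0.83 in SJQYD against control (edgeR adjusted p = 0.0974). SJQYD against model gave 0.02 ± 0.80, with a 95% interval from -1.70 to 1.74, so that more than a 3-fold change in either direction was not excluded at this spread. Without control 4 the log2 fold changes against control were 3.84 and 3.86 and both passed (edgeR adjusted p = 0.00635 and 0.00267).

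Ighm, the heavy chain of IgM, which naive B cells also carry on their surface, had its highest mean in the model group. The control libraries held 9.51, 32.7, 4.80, 35.9 and 31.3 CPM, the model libraries 66.7, 105, 123, 146 and 43.0 CPM and the SJQYD libraries 12.1, 58.7, 46.7, 53.0 and 84.1 CPM. All model libraries were above all control libraries, while the SJQYD libraries reached into the range of both. The log2 fold change was 2.08 ± 0.60 in model against control (edgeR adjusted p = 0.0648), 1.15 ± 0.58 in SJQYD against control (edgeR adjusted p = 0.231) and -0.93 ± 0.58 in SJQYD against model (edgeR adjusted p = 0.481). The interval of the last ran from -2.18 to 0.33 (95%), so neither no change nor a 4-fold lower level lay outside it. SJQYD 1, the lowest of its group for Ighm, was the highest of all 15 libraries for Igha.

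Each of the 4 IgG heavy chain genes was below Igha in every library, and single libraries moved their fold changes. Ighg2b, for IgG2b, had 1.68, 1.60, 1.13, 6.68 and 29.4 CPM in the control libraries. It was at 16.1, 29.0, 17.7, 25.6 and 5.87 CPM in the model libraries and at 9.21, 15.4, 36.4, 11.0 and 22.6 CPM in the SJQYD libraries. Control 5 stood among the highest NOD/LTJ libraries and control 4 above the lowest model library. The log2 fold change in model against control was 1.21 ± 0.84 (edgeR adjusted p = 0.436), or 2.75 without control 5, where it passed (edgeR adjusted p = 0.0459). Ighg2c, for IgG2c, had 1.18, 11.4, 0, 3.60 and 10.8 CPM in the control libraries, 11.4, 22.6, 9.41, 11.3 and 2.81 CPM in the model libraries and 2.57, 6.53, 25.6, 5.93 and 15.3 CPM in the SJQYD libraries. These ranges overlapped, and the log2 fold change in model against control was 1.09 ± 0.96 (edgeR adjusted p = 0.558).

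Ighg1, for IgG1, was at 0.728, 1.33, 0.296, 1.16 and 11.0 CPM in the control libraries, and its NOD/LTJ values lay between 0.944 and 6.13 CPM. Its log2 fold change in model against control was -0.10 ± 0.85 (edgeR adjusted p = 0.962), with no direction to read. Library totals without TMM, limma on FPKM and leaving out control 5 each put it above 0, and it was 1.61 without control 5. Ighg3, for IgG3, was at or below 1.80 CPM in 12 of 15 libraries. The exceptions were control 5 at 29.7, model 2 at 30.6 and SJQYD 2 at 7.22 CPM, 1 in each group. Its log2 fold change in model against control, 0.05 ± 1.58 (edgeR adjusted p = 0.992), moved to 3.16 without control 5 and to -3.08 without model 2. In SJQYD against model the 4 IgG genes had adjusted p from 0.728 to 0.998 and in SJQYD against control from 0.393 to 0.992 (edgeR).

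Isotype shares were taken per length from FPKM (fragments scaled to gene length and library total), as percent of the summed heavy chain members. Igha made up 58.7 ± 24.9% (SD, n = 5) in control, 77.2 ± 8.68% in model and 83.6 ± 8.04% in SJQYD libraries. Ighm made up 24.4 ± 13.8%, 17.0 ± 7.88% and 10.3 ± 5.99%, and the IgG genes together 16.9 ± 17.6%, 5.76 ± 2.49% and 6.11 ± 3.27%. Igha thus led the heavy chains in 13 of 15 libraries, control 2 and control 5 aside, where Ighm with 41.4% and IgG with 44.6% led. By counts, and per base of the shorter transcript, Igha led in control 2 too, hence in 14 of 15. The control libraries were spread most widely, from 34.3% Igha in control 5 to 88.5% in control 4.

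None of the differences in share passed: 9 shares in 3 comparisons gave 27 two-sided exact permutation tests, and the smallest adjusted p was 0.429. For Igha the difference was 18.5 percentage points in model against control (exact permutation p = 0.198) and 24.8 in SJQYD against control (exact permutation p = 0.0952). For Ighm the difference was -7.37 points in model against control (exact permutation p = 0.317), -6.70 in SJQYD against model (exact permutation p = 0.175) and -14.1 in SJQYD against control (exact permutation p = 0.0714). With 5 libraries against 5 the smallest p that such a test can give is 0.00794. Over 27 tests 1 share alone at that p has an adjusted p of 0.214, so it could not pass. These tests therefore cannot show that the shares were alike. On counts per base of the shorter transcript the mean Igha share was 67.7% in control, 85.1% in model and 89.2% in SJQYD libraries, since the deposited FPKM divide the Igha count by 2.43 times the length of that transcript.

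**Figure D2:**
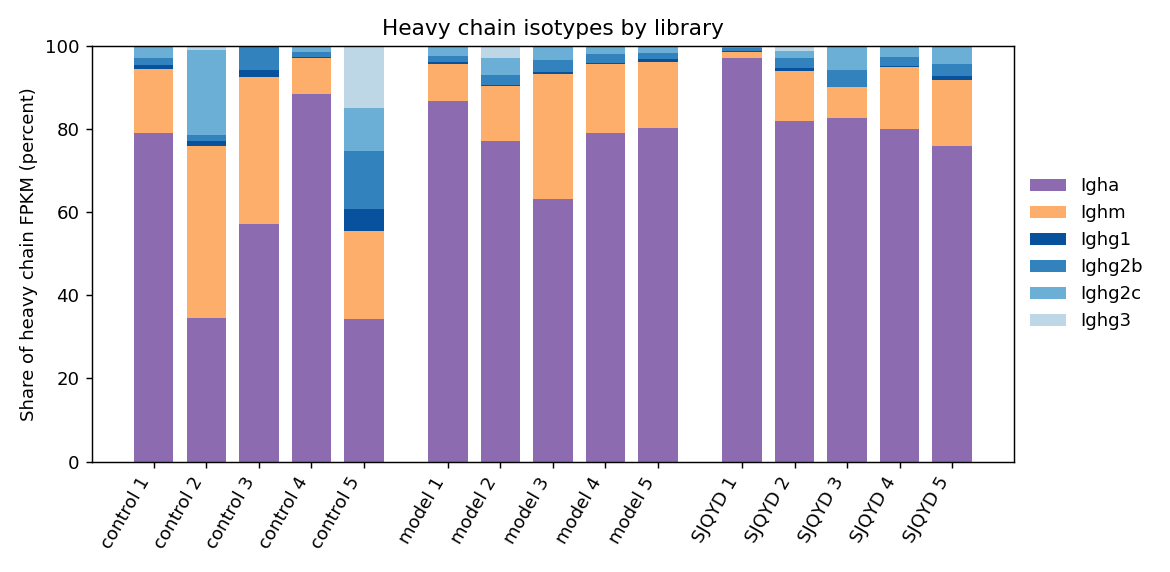
Share of each heavy chain gene in the summed heavy chain FPKM (percent, stacked to 100) in each library. Igha takes 63.1 to 97.2% in the 10 NOD/LTJ libraries, and the control libraries range from 34.3 to 88.5%.

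Within IgG, Ighg2b and Ighg2c together made up 54.3 to 97.9% of the FPKM across the 15 libraries. Ighg2c was at 44.7 ± 4.75% of IgG in model, 43.4 ± 11.9% in SJQYD and 39.8 ± 31.6% in control libraries, and Ighg2b at 39.3 ± 8.47%, 42.4 ± 7.03% and 38.0 ± 26.6%. In control 2 Ighg2c made up 85.1% of IgG, and in control 3 no count of it was found beside 46 of Ighg2b. The order of these 2 genes depends on the length used: the FPKM divide Ighg2b by 2.40 times and Ighg2c by 1.19 times the length of the shorter transcript. By FPKM Ighg2b exceeded Ighg2c in 4 of the 10 NOD/LTJ libraries, and per base of that transcript in all 10.

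Light chains were mostly kappa. Igkc stood at 57.6, 68.4, 8.92, 508 and 146 CPM in the control libraries, at 840.4, 956, 508, 1020.15 and 319.6 CPM in the model libraries and at 996, 595, 756, 413 and 667 CPM in the SJQYD libraries. As for Igha, control 4 was the one control library within the NOD/LTJ range. The log2 fold change was 2.21 ± 0.77 in model against control (edgeR adjusted p = 0.115), 2.12 ± 0.77 in SJQYD against control (edgeR adjusted p = 0.0954) and -0.09 ± 0.74 in SJQYD against model (95% interval -1.69 to 1.51). Without control 4 the first 2 were 3.38 and 3.29 and passed (edgeR adjusted p = 0.0186 and 0.00959). By FPKM Igkc exceeded Igha in every library, at 10.2 FPKM beside 2.46 in control 3 and 2939 beside 695 in SJQYD 1. The size of this excess depends on the length used: the FPKM divide Igha by 2.43 times and Igkc by 1 times the length of the shorter transcript. By counts Igha was above Igkc in control 1, control 3, control 4, model 1 and SJQYD 1, and below it in the others.

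Iglc1, the constant gene of lambda 1 light chains, gave the one difference that passed. The control libraries held 1, 28, 0, 185 and 49 counts, or 0.0280, 0.504, 0, 3.47 and 1.01 CPM. The model libraries held 1552, 1840, 651, 1406 and 378 counts, or 22.3, 26.9, 9.07, 21.7 and 6.24 CPM. The SJQYD libraries held 2519, 394, 992, 665 and 1550 counts, or 24.4, 8.54, 15.4, 12.6 and 27.1 CPM. Every NOD/LTJ library thus exceeded every control library, and the model and SJQYD ranges covered each other. Iglc1 rose by 4.06 ± 0.91 on the log2 scale in model against control (edgeR adjusted p = 0.0261) and by 4.09 ± 0.91 in SJQYD against control (edgeR adjusted p = 0.0137). SJQYD against model was 0.03 ± 0.78, with a 95% interval from -1.66 to 1.72.

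The call of Iglc1 in model against control depended on the libraries in the fit. It was lost without control 1 (edgeR adjusted p = 0.0532), control 5 (0.0606), model 1 (0.0523) or model 2 (0.0638), with only the 2 groups in the fit (0.0797), and without the libraries rich in parotid products (0.0511). With any 1 library left out the log2 fold change lay between 3.75 and 5.40. Without control 4 it was 5.40, and 5.43 in SJQYD against control, where leaving out any 1 library kept the call and leaving out the parotid-rich libraries together lost it (edgeR adjusted p = 0.0541). Without those libraries the log2 fold change of Iglc1 was 4.02 in model and 3.75 in SJQYD against control, in a fit with 3 fewer libraries.

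Iglc2, the constant gene of lambda 2 chains, was at 1.68, 5.80, 0, 4.28 and 3.83 CPM in the control libraries. It was at 18.0, 15.6, 13.4, 18.1 and 7.89 CPM in the model and at 10.4, 18.9, 18.6, 10.5 and 11.0 CPM in the SJQYD libraries. Here too the NOD/LTJ libraries all exceeded the control libraries, by a smaller factor than for Iglc1. The log2 fold change was 2.22 ± 0.68 in model against control (edgeR adjusted p = 0.0775), 2.14 ± 0.68 in SJQYD against control (edgeR adjusted p = 0.0587) and -0.08 ± 0.64 in SJQYD against model. Whether the fold change of Iglc1 exceeded that of Iglc2 was not tested in the count model.

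The lambda share, Iglc1 and Iglc2 over the sum of these and Igkc, was 2.91 ± 2.84% in control, 4.31 ± 0.325% in model and 4.70 ± 0.908% in SJQYD libraries, and none of the differences passed (exact permutation p from 0.206 to 0.413). Of the sum of Iglc1 and Iglc2 FPKM, Iglc1 took 2.10, 10.4, 52.2 and 26.3% in control libraries 1, 2, 4 and 5, and no value exists for control 3, where both genes had 0 counts. It took 58.7 ± 8.96% in model and 61.0 ± 16.5% in SJQYD libraries. The difference from control was 36.0 points for model (exact permutation p = 0.0238, adjusted p = 0.429) and 38.3 points for SJQYD (exact permutation p = 0.0317, adjusted p = 0.429), so neither passed after adjustment. Iglc3 is no member and is not in these sums. With Iglc3 counted, lambda was 4.54 ± 4.73% in control, between 4.37 and 6.03% in the model libraries and 5.86 ± 1.31% in SJQYD libraries. Iglc1 was then 1.31, 5.89, 27.2 and 23.1% of lambda in the 4 control libraries, 47.0 ± 10.9% in model and 50.3 ± 18.0% in SJQYD libraries. The exact permutation adjusted p was 0.214 for model and 0.321 for SJQYD against control. All model libraries lay above these 4 control libraries, and the exact permutation p of 0.00794 was the smallest possible. Over 27 tests 0.214 is the lowest adjusted p that 1 share alone can reach. The SJQYD libraries overlapped the control libraries. Set against kappa, Iglc1 was 0 to 0.847% of the Igkc FPKM in the control libraries, 2.09 to 3.29% in the model and 1.68 to 4.76% in the SJQYD libraries. This includes control 4, which was as rich in Igkc as some NOD/LTJ libraries and held Iglc1 at 0.797% of it. For Iglc2 the same ratio was 0 to 7.33% in control, 1.42 to 2.30% in model and 0.903 to 2.77% in SJQYD libraries, with full overlap. These 2 ratios were chosen after the values were seen and carry no test.

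**Figure D3:**
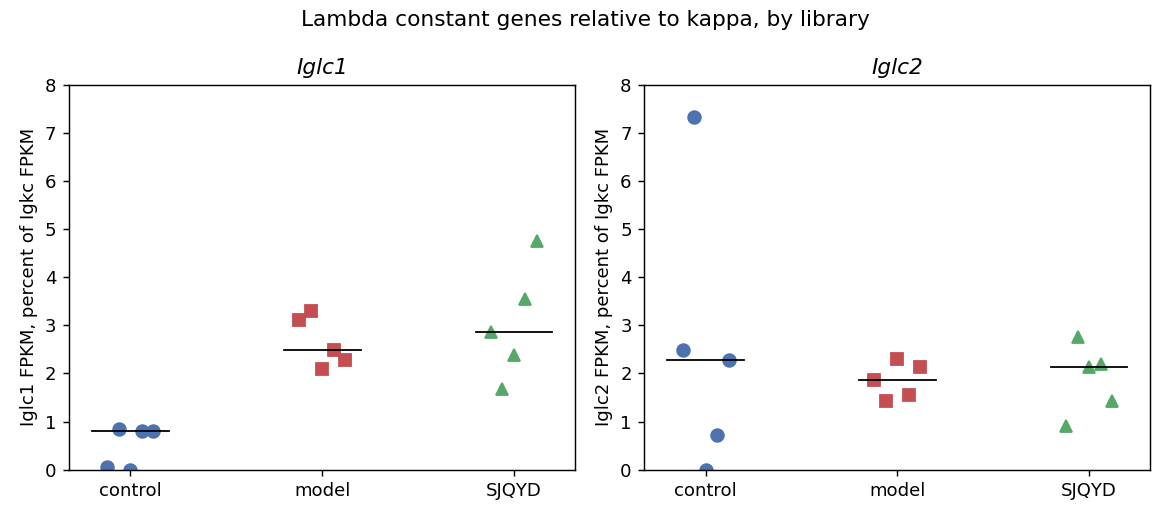
FPKM of Iglc1 (left) and Iglc2 (right) as percent of the Igkc FPKM in each library, with lines at the group medians. For Iglc1 the 5 control libraries lie at or below 0.847% and the 10 NOD/LTJ libraries at or above 1.68%, while for Iglc2 the groups overlap.

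Jchain, which joins IgA into dimers and IgM into pentamers, followed Igha closely. It stood at 12.7, 11.7, 3.45, 124 and 21.4 CPM in the control, 203, 179.6, 71.3, 216 and 55.3 CPM in the model and 189, 103, 124, 72.9 and 107 CPM in the SJQYD libraries. As before, control 4 lay within the NOD/LTJ range and the other control libraries below it. For Jchain the log2 fold change was 2.07 ± 0.80 in model against control (edgeR adjusted p = 0.155), 1.78 ± 0.80 in SJQYD against control (edgeR adjusted p = 0.173) and -0.28 ± 0.77 in SJQYD against model (95% interval -1.96 to 1.39). Without control 4 the first 2 were 3.56 and 3.27 and passed (edgeR adjusted p = 0.00881 and 0.00599).

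**Figure D4:**
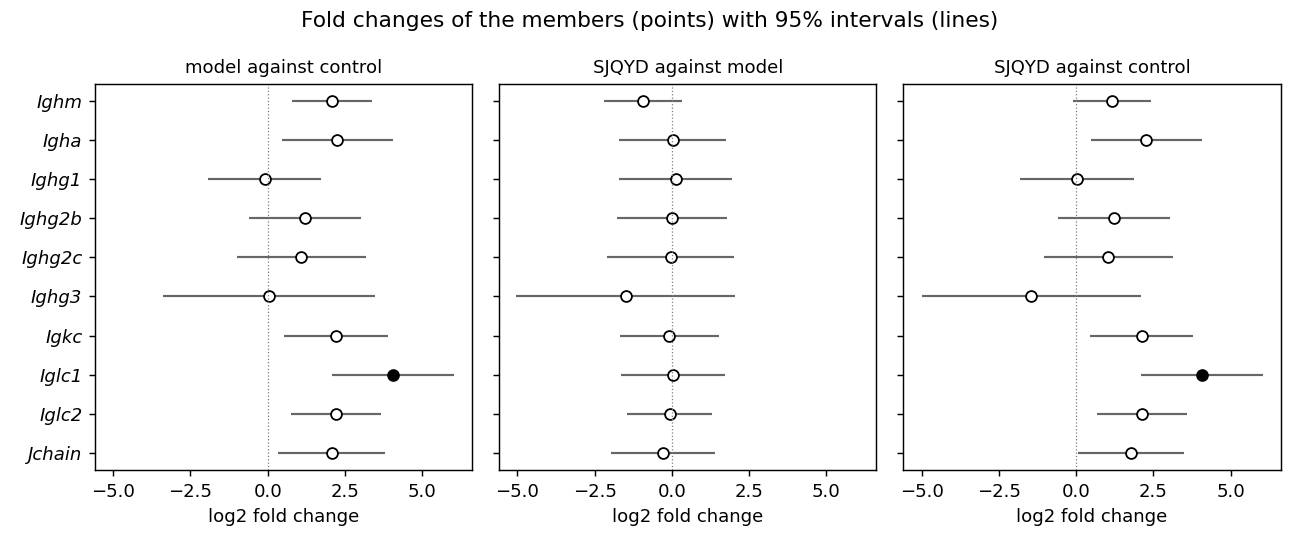
Log2 fold change (points) with its 95% interval (lines) for the 10 members in the 3 comparisons, filled where the edgeR adjusted p was under 0.05. Iglc1 is filled in both comparisons against control, 6 members in model against control have intervals above 0, and all 10 intervals of SJQYD against model include 0.

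Across the 15 libraries the log2 CPM of Igha and Jchain had a Pearson r of 0.992 and a Spearman rho of 0.968 (permutation p = 1e-05 for both, the smallest that 100000 resamples can give, adjusted p = 4e-05 over 4 relations). Over the 10 NOD/LTJ libraries alone r was 0.974, and without the 2 libraries farthest from the median, control 2 and control 3, it was 0.984. Ighm followed Ms4a1, which encodes the B cell surface protein CD20, with r = 0.783 and rho = 0.800 (permutation adjusted p = 0.00146 and 0.00124). In the NOD/LTJ libraries r was 0.822 (permutation adjusted p = 0.014) and rho 0.673, which did not pass (permutation adjusted p = 0.08), and rho without control 1 and control 3 was 0.731.

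The alpha and mu chains were tied less closely to each other. Igha and Ighm had r = 0.661 and rho = 0.554 over 15 libraries (permutation adjusted p = 0.0079 and 0.034), and Ighm and Jchain r = 0.692 and rho = 0.582 (permutation adjusted p = 0.00613 and 0.032). In the NOD/LTJ libraries alone these r were -0.192 and -0.00428, and without the 2 farthest control libraries they were 0.454 and 0.290, so both rest on the control libraries. All levels share the library scaling, and groups of 5 are too few to correlate singly.

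**Figure D5:**
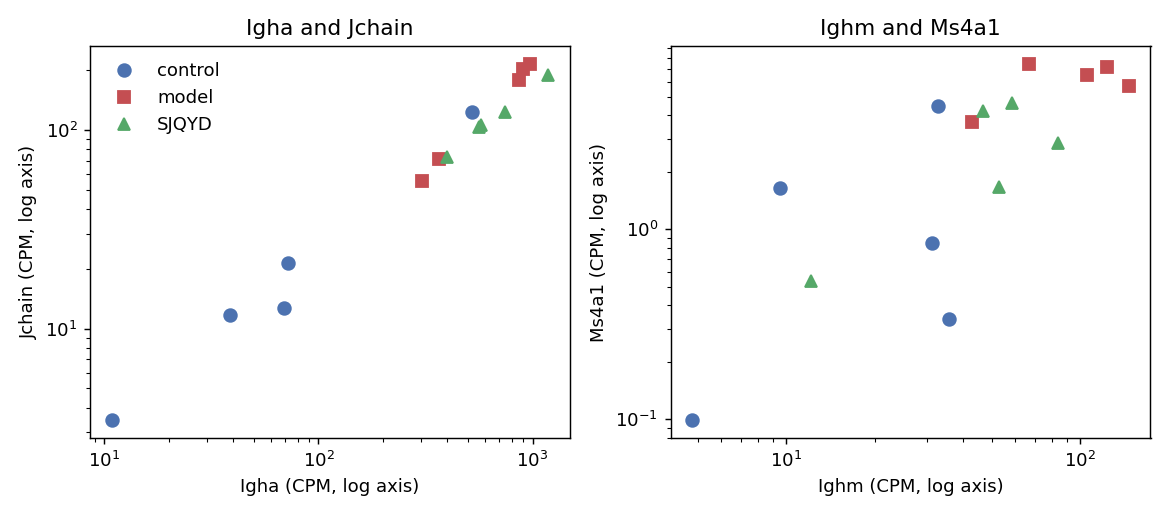
CPM of Jchain against Igha (left) and of Ms4a1 against Ighm (right) in the 15 libraries, both axes on a log scale. Igha and Jchain lie along one line over all groups (r = 0.992), and Ighm and Ms4a1 are more scattered (r = 0.783).

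Outside the immunoglobulin genes, the tested genes most like Igha across the 15 libraries were Jchain, Slpi, a protease inhibitor of mucosal secretions (r = 0.927), Prg2, which encodes the eosinophil granule major basic protein (r = 0.883), and Bglap3 (r = 0.870). Most like Igkc were Jchain (r = 0.983), Slpi (r = 0.900), Bglap3 (r = 0.893) and Pou2af1, a transcriptional coactivator of B cells and plasma cells (r = 0.891). Most like Ighm were Msln (r = 0.860), Lmtk3 (r = 0.853), Cxcl13, a chemokine that draws B cells into follicles (r = 0.853), Ccl8, another chemokine (r = 0.845), and H2-Eb1, a class II antigen-presenting gene (r = 0.845). These are among the highest of all tested genes by construction and are given as descriptions over 15 libraries in 3 groups.

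Of 6 other immunoglobulin constant genes on the list, 2 were tested and neither passed in any comparison. Ighd, the heavy chain of IgD on mature naive B cells, was at 0.225 to 22.0 CPM in control, 9.93 to 25.5 in model and 1.15 to 17.7 CPM in SJQYD libraries. Its high control library was control 2, where Ighd reached 66.7% of the Ighm FPKM, against at most 38.0% in the model and 37.6% in the SJQYD libraries. Iglc3, the near copy of Iglc2, was at 0 to 6.08, 4.22 to 8.78 and 3.17 to 13.5 CPM.

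Of all tested genes 2.57% were called higher and 2.50% lower in model against control. Among 20 genes of plasma cell identity and of antibody folding and export, 2 rose and none fell there. These were Irf4, a transcription factor needed for plasma cells, with a log2 fold change of 1.80 ± 0.43 (edgeR adjusted p = 0.0258), and Tnfrsf13b, a receptor for the survival factors of B and plasma cells, at 1.58 ± 0.41 (edgeR adjusted p = 0.0368). Irf4 was also higher in SJQYD against control, at 1.55 ± 0.43 (edgeR adjusted p = 0.029). It ran from 0.246 to 1.55 CPM in control, 1.46 to 3.91 in model and 1.87 to 3.13 CPM in SJQYD libraries. The list's median log2 fold change was -0.02 in model against control, beside 0.03 over all genes. This median does not mean that the list was unmoved. Of the 20 genes 9 were above 0, and values ran from -0.49 for Ell2 to 2.38 for Ccr10. At an unadjusted p under 0.05 there were 12, some higher and some lower. The share of all tested genes under that p in either direction was not taken.

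In SJQYD against model 2 genes of this list rose, where 1.91% of all tested genes were called higher. Both serve protein folding in the endoplasmic reticulum. Txndc5, a disulfide isomerase, had 293 to 345 CPM in SJQYD against 185 to 251.8 in model and 172 to 251 CPM in control libraries, a log2 fold change of 0.63 ± 0.13 (edgeR adjusted p = 0.0106) against model and 0.64 ± 0.13 (edgeR adjusted p = 0.00457) against control. Creld2, a stress-induced chaperone, had 29.0 to 54.5 CPM in SJQYD, 17.0 to 28.2 in model and 25.0 to 38.8 CPM in control libraries. Its log2 fold change against model was 0.81 ± 0.20 (edgeR adjusted p = 0.0334). Against control Creld2 was not called, at 0.36 ± 0.19 in SJQYD (edgeR adjusted p = 0.258) and -0.45 ± 0.19 in model libraries (edgeR adjusted p = 0.185). Secretory cells of other kinds express Txndc5 and Creld2 too, and which cells these differences came from was not tested. Ell2 encodes an elongation factor that favours the secreted form of heavy chains. It fell by 0.62 ± 0.15 on the log2 scale in SJQYD against control (edgeR adjusted p = 0.0159), where 5.90% of all tested genes were called lower. Neither other comparison called Ell2. It was at -0.49 ± 0.15 in model against control (edgeR adjusted p = 0.0714) and -0.13 ± 0.15 in SJQYD against model (edgeR adjusted p = 0.757).

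None of 15 tested genes for class switching and its signals passed in any comparison with edgeR. At an unadjusted p under 0.05 there were 3 in model against control, 4 in SJQYD against model and 0 in SJQYD against control. The share of all tested genes under that p in either direction was not taken, so these counts have no background beside them. The most abundant of the 15 genes were Trp53bp1, a factor of DNA break repair, at a mean of 20.5, 21.0 and 23.4 CPM in control, model and SJQYD libraries, Ung, which removes uracil from DNA, and Tgfbr2, a receptor subunit for TGF-beta, the signal that directs switching to IgA, at 13.2, 15.3 and 12.1 CPM. Among 13 tested receptors and carriers of antibody, Fcgr1, the high-affinity IgG receptor of macrophages, rose in model against control by 1.01 ± 0.22 on the log2 scale (edgeR adjusted p = 0.0161). It was at 1.28 to 2.07 CPM in control, 2.85 to 4.63 in model and 1.64 to 3.09 CPM in SJQYD libraries. Of all tested genes 2.57% were called higher in model against control. None of the 13 was called in SJQYD against model. All 13 had a log2 fold change below 0 there, with a median of -0.75 beside -0.03 over all genes. At an unadjusted p under 0.05 there were 5 of them, and the share of all tested genes lower at that p was not taken. Pigr, the carrier of dimeric IgA, was at 142 to 416 CPM in control, 164 to 341 in model and 74.5 to 242 CPM in SJQYD libraries and did not pass in any comparison.

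Markers of other tissues and cells also differed between libraries. Apart from Ms4a1 with Ighm, their relation to the members was not tested. None of 14 B cell markers was called in any comparison. At an unadjusted p under 0.05 there were 2, both higher in model against control, beside 11.6% of all tested genes. The other 2 comparisons had 0. All 14 were above 0 in model against control (median 1.50) and none was above 0 in SJQYD against model (median -0.80). Their summed level was 10.1 to 118 CPM in control, with control 2 the highest, 62.7 to 131 in model and 24.6 to 84.7 CPM in SJQYD libraries. Among the most abundant were Cd72 and Cd79a, both B cell surface proteins, and in the control group Cd79a and Cd79b were at 0 in the lowest library.

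Genes of lymph node stroma and of naive lymphocytes, a tissue that lies against the gland, summed to 10.3 to 95.2 CPM in control, 28.2 to 254 in model and 10.2 to 126 CPM in SJQYD libraries. None of 9 tested was called. At an unadjusted p under 0.05 there was 1, higher in model against control, beside 11.6% of all tested genes. The other comparisons had 0. Among the most abundant of the 9 were Ccl21a, a chemokine of lymph node stroma, and Glycam1, a product of high endothelial venules. Cr2 and Fcer2a stand in this list and in another. Their part in the levels of Ighm, and that of the parotid products, was not tested. Of the 10 epithelial genes, Bhlha15, a factor of secretory cells, fell by 0.57 ± 0.15 (edgeR adjusted p = 0.032) and Epcam, an adhesion molecule of epithelia, by 0.63 ± 0.18 on the log2 scale in model against control (edgeR adjusted p = 0.0478). In SJQYD against control Epcam fell by 0.63 ± 0.18 (edgeR adjusted p = 0.0287), and none of the 10 passed in SJQYD against model. Of all tested genes 2.50% were called lower in model and 5.90% in SJQYD against control.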

How the data were processed

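The authors deposited whole-number counts per gene and, per the file headers, FPKM values of the same genes. The deposited FPKM equal the count divided by the summed length of all annotated exons and by the library total, as checked from the values. Per the labels' protocols, poly(A) RNA was made into strand-marked libraries with molecular identifiers and read from both ends, 150 bases each. The submitters' processing notes name cutadapt 1.9, HISAT2 2.0.4, StringTie 1.3.4d, UMI-tools, DESeq2, edgeR and the build mm9, but gene coordinates in the file equal GRCm38. How reads matching several genes were counted, and whether counts are of molecules, is not given in the sources used here.

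Counts were fitted with edgeR 4.0.16 (R 4.3.3) using TMM, the default expression filter by group and robust quasi-likelihood, over all 15 libraries, with Benjamini-Hochberg adjustment over 18136 genes and a threshold of 0.05. DESeq2 1.42.0 and limma 3.58.1 served as alternatives. Intervals are at 95%. Shares were compared by exact permutation over 252 arrangements, or 126 for Iglc1 of lambda against control, where control 3 had no value. Relations used log2(CPM + 0.5) and 100000 resamples. Scripts were tested on simulated data. Floors of 3 counts cover counting error only. The labels do not say that libraries of a group came from separate litters or cages, so p-values measure the spread between these libraries.

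All members were named. In each list up to 4 called genes with the smallest p were named or, where none was called, the 3 most abundant, and for Igha, Ighm and Igkc the 5 genes with the highest r, leaving out immunoglobulin, T cell receptor and predicted genes and pseudogenes. A few genes that this rule names are not reported here. Members and lists were chosen with earlier results of these data known.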

Additional observations from a re-analysis of the deposited data

Results flagged for a closer look

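In 9 cases a library stood apart from the other 4 libraries of their group by Dixon's test at 95%, which flags about 1 in 20 groups by chance, and 57 groups were tested. In control 4, Igha at 523 CPM, Igkc at 508 CPM and Jchain at 124 CPM were far above the rest of the control group, which reached 72.2, 146 and 21.4 CPM. In control 5, Ighg1 at 11.0 CPM, Ighg2b at 29.4 CPM and Ighg3 at 29.7 CPM were far above the others, which reached 1.33, 6.68 and 1.80 CPM.

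Ighg3 had a single high library in each group: besides control 5, model 2 stood at 30.6 CPM, where the others reached 1.28, and SJQYD 2 at 7.22 CPM, where the others reached 1.73. In model 2 Ighg3 made up 30.0% of the IgG FPKM, against at most 3.54% in the other model libraries.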

How the results depend on the processing

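Against control, the number of members called was 1 for model and 1 for SJQYD. It was 5 and 4 with DESeq2, 2 and 4 with library totals only, 7 and 7 with limma on log2(FPKM + 1) or log2(FPKM + 0.1), 4 and 5 with limma without a filter, 2 for SJQYD at 1 CPM or more in 5 libraries, 0 for model with only the 2 groups compared, and 0 and 0 without control 2, model 3 and SJQYD 1. Over all genes the share called higher was 2.57 and 5.22%, 5.17 and 7.75% with DESeq2, 8.40 and 25.2% with library totals, 11.4 and 28.6% or 15.7 and 31.9% with limma, and 1.46 and 5.73% without its filter. Leaving out 1 library gave 0 to 4 for model and 1 to 4 for SJQYD, with 4 without control 4. In SJQYD against model it was 0 under all 26 alternatives. Same-numbered libraries had correlations of -0.316 to 0.255, so the numbers were not taken as pairs. With the number as a replicate block 2 members were called in each comparison against control, Ighm and Iglc1 for model and Igha and Iglc1 for SJQYD, and in 12 of 15 same-numbered pairs another number correlated better.

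No called value changed direction. Among uncalled ones, Ighg1 in model against control was 0.42 with library totals only, 0.34 and 1.07 with limma (0.34 without a filter), 1.12 with the replicate block, and -0.39 to 1.61 with 1 library left out, and Ighg3 was -3.08 to 3.16. In SJQYD against model, Igkc was 0.11 with library totals only, 0.05 with limma under all 3 settings (0.0480), 0.12 with the replicate block and -0.28 to 0.0637 with 1 left out, and Jchain was 0.0323 with the replicate block. Without the 3 parotid-rich libraries Igha was -0.41 and Iglc1 -0.27, and the share differences were -0.600 points for Igha and -4.16 for Iglc1 of lambda. With 1 library left out, Igha was -0.25 to 0.18, Iglc1 -0.18 to 0.25, Iglc2 -0.23 to 0.0285, the IgG share -0.615 to 1.53 and Iglc1 of lambda -1.60 to 8.16 points. No share passed under any alternative, and 1 share alone could not have passed even at the smallest possible p. The r of Ighm with Jchain was -0.00428 in the NOD/LTJ libraries and 0.290 without the 2 farthest, and that of Igha with Ighm -0.192 and 0.454. The cause of these changes was not tested. Iglc1, Iglc2, Ighg2c and Ighg3 were at 0 counts in control 3, so their level there is not resolved. That library held 57056428 counts, of which 1195 were of the members.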

Other observations

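The ratio of Jchain to Igha was narrow in the treated glands. Jchain was 16.9 to 19.8% of the Igha FPKM in the SJQYD libraries, 19.2 to 23.8% in the model libraries and 19.4 to 33.7% in the control libraries. This ratio was looked at after the values were seen, and it carries no test.

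Igkc made up 41.0 to 44.1% of all member counts in SJQYD, 40.3 to 45.3% in model and 30.3 to 41.9% in control libraries, a narrower spread than that of Igha, at 37.8 to 48.7%, 32.7 to 43.3% and 20.3 to 44.9%. The plasma cell coactivator gene Pou2af1 stood at 0 to 2.86 CPM in control, 3.23 to 7.15 in model and 2.00 to 7.29 CPM in SJQYD libraries. Slpi stood at 0 to 1.67, 3.14 to 10.9 and 2.96 to 13.8 CPM.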
